A study of Mus musculus with 4 samples.

Results

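In all, 10 genes of leukotriene and prostaglandin synthesis were examined in RNA from sorted NK cells, namely Alox5, Alox5ap, Lta4h, Ltc4s, Alox15, Ptgs1, Ptgs2, Hpgds, Ptges and Tbxas1. They were chosen by gene symbol, with earlier results of these data known. All 10 were found among the 35798 genes named in the count table. The libraries came from Ly49H+ NK cells, the NK cell subset that recognises a protein of murine cytomegalovirus (MCMV), taken from wild-type mice carrying CD45.1 and from TNFR2 KO mice carrying CD45.2. Cells of both donors were transferred together into NSG mice, the hosts were infected with MCMV, and on D3.5 post-infection Ly49H+ cells with either CD45 allele were sorted from spleen after NK cell enrichment by negative selection. Each genotype had 2 libraries, and each library was made from the spleens of 3 hosts combined. A wild-type and a TNFR2 KO library that share a replicate number were sorted from the same pool. The comparison asks which transcripts differ between TNFR2 KO and wild-type NK cells that answered the same infection in the same hosts. Both groups shared the host, the transfer and the infection, and no uninfected library was analysed here. All mice were young adults by the study's methods, which give no age for a single library. NSG mice lack T, B and NK cells but keep their own myeloid cells, and as mice of the NOD background they carry CD45.1, the allele by which the wild-type cells were gated. The genotype, the CD45 allele and the gate of the sort differed at once, so their contributions cannot be told apart.

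Eicosanoids are short-lived lipid messengers made from arachidonic acid, which phospholipase A2 enzymes release from membranes. In the leukotriene branch, 5-lipoxygenase (Alox5) acts together with its activating protein FLAP (Alox5ap) to form leukotriene A4, which Lta4h turns into the neutrophil attractant leukotriene B4 and Ltc4s into the first cysteinyl leukotriene. In the prostanoid branch, the cyclooxygenases Ptgs1 and Ptgs2 form prostaglandin H2, from which Hpgds, Ptges and Tbxas1 make prostaglandin D2, prostaglandin E2 and thromboxane A2. Mast cells, basophils, macrophages, neutrophils and platelets are the blood cells best known for these pathways, while Lta4h is found in nearly every cell type. NK cells carry receptors for prostaglandin E2, which is known to dampen them.

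The expected counts were rounded, scaled between libraries with edgeR's TMM factors and expressed as CPM, a count relative to the scaled size of its library. A negative log2-fold change means a lower level in TNFR2 KO. These changes, with their standard error (SE), were fitted by the quasi-likelihood test of edgeR on the 13822 genes that passed the filter on low counts, with adjusted p-values by Benjamini-Hochberg over all of them. A gene was called lower or higher where the adjusted p was under 0.05 and the absolute log2-fold change was over 1. Library totals ran from 32713256 to 39543650 counts. Tnfrsf1b, which encodes TNFR2, had 265 and 269 CPM in wild-type and 55.1 and 58.6 CPM in TNFR2 KO libraries (log2-fold change -2.23, SE 0.0352, adjusted p = 1.35e-13), which goes with the labels. For a single gene, the smallest two-sided p of an exact permutation test with these libraries is 0.333 if they are taken as unpaired, and larger if the pairs are kept. The p-values given therefore come from the fit over the whole table and refer only to these libraries and the animals pooled for them.

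Most of the synthesis genes were lower in TNFR2 KO than in wild-type libraries. Of the 10, 9 passed the filter on low counts, and 8 of these 9 were called lower (Alox5, Alox5ap, Alox15, Ptgs1, Ptgs2, Hpgds, Ptges and Tbxas1). Over all genes tested, 11.8% were called lower. As the list was chosen with earlier results of these data known, this comparison is a description. Ptges passed the filter through the wild-type libraries alone, so that a difference was built into its passing, and the other 8 passed in both groups. No member was called higher by edgeR, against 1.56% of all genes, or by DESeq2, against 157 of 13822 genes. At an unadjusted p under 0.05 by edgeR, 1 member, Lta4h, was higher, against 3730 of the 13822 genes. By the adjusted p alone, 8 members were lower and 1 was higher, against 26.2% and 24.2% of all genes. Both wild-type libraries lay above both TNFR2 KO libraries in 8 of the 9 members tested and in the untested Ltc4s. That order held for 37.7% of all genes tested. In Lta4h the order was the opposite, as in 36.4% of all genes tested. The median log2-fold change was -3.05 over the 9 members tested and -0.0028 over all genes tested. Summed over the 10 genes, the level was 332 and 321 CPM in wild-type and 262 and 260 CPM in TNFR2 KO libraries. Without Lta4h the sum of the other 9 was 160 and 155 CPM against 18.6 and 18.7 CPM, so the TNFR2 KO level was 11.8% of the wild-type level.

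**Figure D1:**
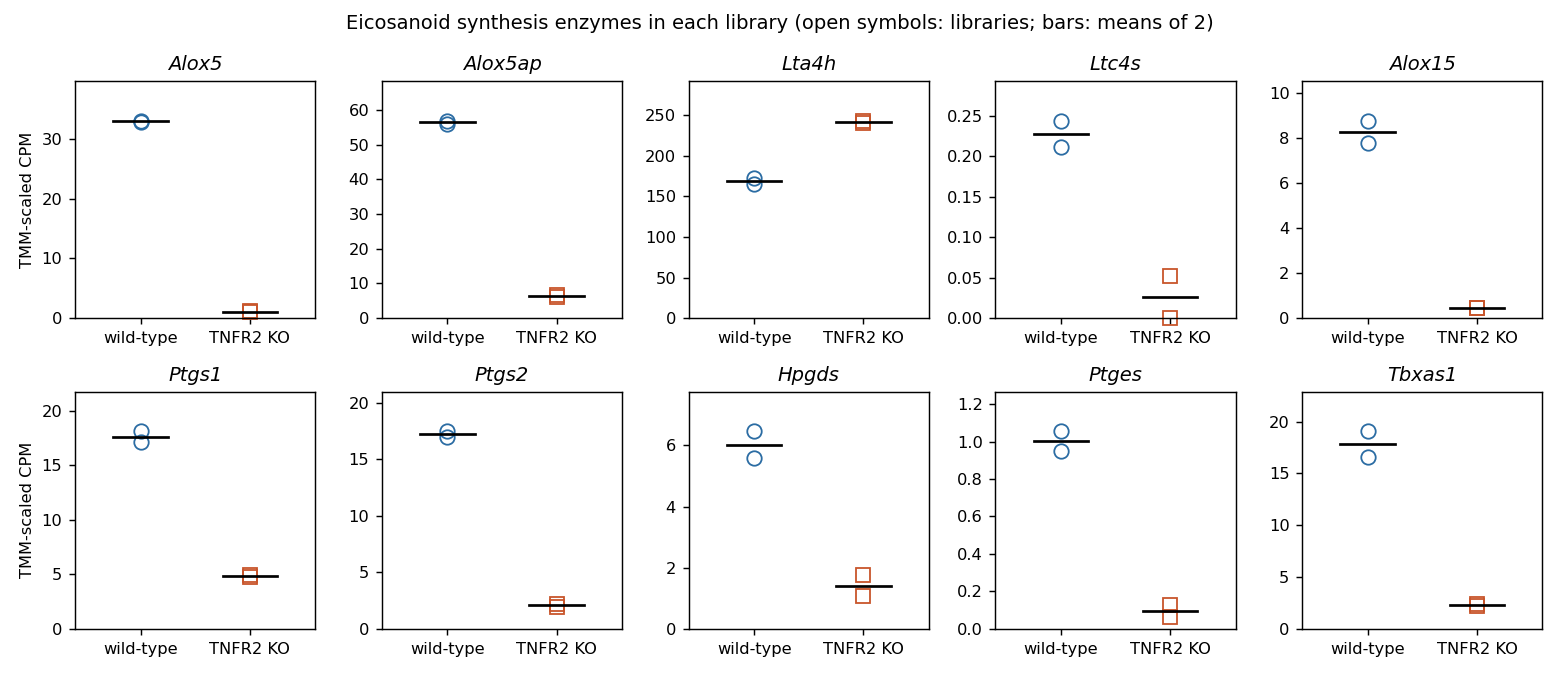
Level of each of the 10 synthesis genes in TMM-scaled CPM (linear axis from 0, with its own range in each panel) in the 2 wild-type libraries (circles) and 2 TNFR2 KO libraries (squares), with a bar at the mean of each group. The TNFR2 KO points lie below the wild-type points for 9 genes and above them for Lta4h, with 242 ± 1.76 against 169 ± 5.04 CPM (mean ± SD, n = 2).

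The stretch of DNA just before the start of transcription is shown for 4 of these genes, because it carries the short motifs searched for below and lets a gene at 3.33% of its wild-type level be read beside a gene that was not lower. Alox5, Ptgs1 and Ptgs2 were called lower, and Lta4h was not. RefSeq on GRCm38.p6 gave such a window for 8 of the 10 members, without Alox5ap and Alox15. Each printed window holds the 250 bases before the RefSeq start, 5′ to 3′ on the strand of the gene, and lies outside the gene as GENCODE release M21 annotates it. By the same annotation, the windows of Ptges and Tbxas1, not printed, lie inside their genes, and those of Hpgds and Ltc4s overlap theirs. Capitals mark GAGGAA, the core recognised by the myeloid factor PU.1, and GGGCGG, the GC box recognised by Sp1, on either strand, with positions counted back from the start. The Alox5 window is chr6:116461179-116461428 on the minus strand, the Ptgs1 window chr2:36230176-36230425 on the plus strand, the Ptgs2 window chr1:150099781-150100030 on the plus strand and the Lta4h window chr10:93453146-93453395 on the plus strand.
Alox5: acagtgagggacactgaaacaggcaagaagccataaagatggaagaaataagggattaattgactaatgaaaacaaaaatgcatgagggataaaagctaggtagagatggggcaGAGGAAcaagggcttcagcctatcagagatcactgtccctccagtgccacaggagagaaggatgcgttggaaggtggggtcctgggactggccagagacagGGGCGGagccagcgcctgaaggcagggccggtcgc
Ptgs1: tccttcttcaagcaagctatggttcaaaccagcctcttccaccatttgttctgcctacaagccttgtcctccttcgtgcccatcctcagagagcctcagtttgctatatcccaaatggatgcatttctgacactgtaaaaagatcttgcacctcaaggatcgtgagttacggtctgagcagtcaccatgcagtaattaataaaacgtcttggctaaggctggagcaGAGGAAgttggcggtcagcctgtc
Ptgs2: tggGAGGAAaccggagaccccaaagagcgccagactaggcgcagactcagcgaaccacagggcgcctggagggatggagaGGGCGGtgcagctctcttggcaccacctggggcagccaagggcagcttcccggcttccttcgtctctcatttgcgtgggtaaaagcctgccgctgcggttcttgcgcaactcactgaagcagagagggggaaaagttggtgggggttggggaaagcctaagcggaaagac
Lta4h: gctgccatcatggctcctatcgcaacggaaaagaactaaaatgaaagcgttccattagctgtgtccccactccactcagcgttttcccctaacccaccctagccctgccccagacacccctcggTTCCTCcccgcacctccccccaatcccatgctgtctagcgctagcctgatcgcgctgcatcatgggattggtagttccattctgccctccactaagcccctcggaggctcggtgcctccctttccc

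In these windows GAGGAA began at -136 in Alox5, -24 in Ptgs1, -247 in Ptgs2 and, on the opposite strand, -126 in Lta4h. GGGCGG began at -35 in Alox5 and at -170 in Ptgs2. GAGGAA was present in 7 of the 8 member windows (all but Ltc4s) and in 23.1% of the 27025 windows of the same length in RefSeq. The Lta4h window held it as well, so its presence did not separate the called members from Lta4h. GGGCGG was present in 3 of the 8 windows (Alox5, Ptgs2 and Ptges) and in 32.9% of all windows, and TATAAA in 1 of the 8 (Tbxas1) and in 13.0%. AGATAA, the GATA motif, TGACTCA, the AP-1 motif, and the NF-kB consensus were in 0 of the 8 windows, against 10.3%, 4.43% and 7.01% of all windows. These are matches of letters on both strands and were not tested as binding sites.

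The 2 genes that start the leukotriene branch were both called lower. Alox5, on the minus strand of chromosome 6 at 116410077 to 116461178 with 14 exons in its principal transcript, had 33.1 and 32.9 CPM in wild-type and 1.01 and 1.19 CPM in TNFR2 KO libraries. Its wild-type libraries held 1254 and 1212 counts and its TNFR2 KO libraries 39 and 38, so the groups lay far apart and the duplicates close together. Alox5 had a log2-fold change of -4.91 (SE 0.109, 95% interval -5.15 to -4.68, adjusted p = 2.33e-12), a 30.2-fold lower level and the largest change among the members tested. Of all genes tested, 0.355% had a log2-fold change as low as that of Alox5. No 31-base stretch of its transcripts was found in another annotated gene.

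Alox5ap, which encodes the membrane protein that presents arachidonic acid to 5-lipoxygenase, lies on the plus strand of chromosome 5 at 149264767 to 149288153. It had 56.9 and 55.8 CPM in wild-type and 6.64 and 6.06 CPM in TNFR2 KO libraries. The difference was again far beyond the spread of the duplicates, at a log2-fold change of -3.14 (SE 0.0664, 95% interval -3.29 to -3.00, adjusted p = 1.53e-12), or 8.84-fold lower. An antisense gene, Gm19719, shares 9.45% of the 31-base stretches of Alox5ap when the opposite strand is counted, and although the libraries were made strand-specific, the strand setting used with kallisto is not stated.

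Downstream of leukotriene A4 the 2 enzymes differed in level and in what could be tested. Lta4h, the hydrolase that makes leukotriene B4, lies on the plus strand of chromosome 10 at 93453411 to 93484875. It had 173 and 166 CPM in wild-type and 243 and 241 CPM in TNFR2 KO libraries, and it was the only member whose TNFR2 KO libraries lay above the wild-type ones. Its log2-fold change was 0.52 (SE 0.0298, 95% interval 0.45 to 0.58, adjusted p = 2.32e-08), a 1.43-fold higher level that stayed under the fold limit for a call. With scaling on NK lineage genes in place of TMM, its log2-fold change was -0.19 (adjusted p = 7.75e-05), while the median of all genes moved to -0.71. A change of scaling moves all genes alike, so relative to that median the difference was 0.52 under either scaling by construction.

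Ltc4s, the synthase that joins glutathione to leukotriene A4, lies on the minus strand of chromosome 11 at 50236461 to 50238616. It was near the limit of detection, with 8 and 9 counts (0.211 and 0.244 CPM) in wild-type and 2 and 0 counts (0.0517 and 0 CPM) in TNFR2 KO libraries. It did not pass the filter on low counts. Its ratio of wild-type over TNFR2 KO was 8.04, with a counting interval from 1.91 to 71.7, and edgeR without the filter gave an adjusted p of 0.0778. The interval covers counting error only. Gm26542, an antisense gene, shares 19.5% of its 31-base stretches. A difference in Ltc4s was not detectable by this test at this depth.

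Alox15 belongs to another lipoxygenase branch, which makes hydroxylated fatty acids and lipoxins, and is known from eosinophils and resident macrophages. It lies on the minus strand of chromosome 11 at 70344152 to 70352031. Its level was 7.75 and 8.76 CPM in wild-type and 0.439 and 0.468 CPM in TNFR2 KO libraries. The duplicates differed by far less than the groups, with 294 and 323 counts against 17 and 15. The log2-fold change was -4.18 (SE 0.203, 95% interval -4.62 to -3.74, adjusted p = 4.42e-09), or 18.1-fold lower, second among the members after Alox5.

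Both cyclooxygenases were called lower. Ptgs1, the constitutive form that platelets and mast cells use, lies on the plus strand of chromosome 2 at 36230426 to 36252272. It had 18.1 and 17.1 CPM in wild-type and 4.91 and 4.74 CPM in TNFR2 KO libraries. With a log2-fold change of -1.87 (SE 0.104, 95% interval -2.09 to -1.64, adjusted p = 1.65e-08) it was 3.65-fold lower, the smallest change among the 8 called members, and 27.4% of its wild-type level was measured in TNFR2 KO libraries.

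Ptgs2, the form induced by inflammatory stimuli, lies on the plus strand of chromosome 1 at 150100031 to 150108227. It had 17.0 and 17.5 CPM in wild-type and 1.91 and 2.25 CPM in TNFR2 KO libraries, again without overlap. Its log2-fold change was -3.05 (SE 0.126, 95% interval -3.33 to -2.78, adjusted p = 9.74e-10), or 8.31-fold lower. The 95% intervals of Ptgs1 and Ptgs2 did not overlap. Per kilobase of transcript, the ratio of Ptgs1 to Ptgs2 was 1.66 and 1.52 in wild-type and 3.99 and 3.28 in TNFR2 KO libraries, so Ptgs1 was above Ptgs2 in all 4 libraries and by more in TNFR2 KO.

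The 3 terminal prostanoid synthases were called lower. Tbxas1, which makes thromboxane A2 and lies on the plus strand of chromosome 6 at 38875404 to 39084585, had 19.1 and 16.5 CPM in wild-type and 2.40 and 2.22 CPM in TNFR2 KO libraries. Its log2-fold change was -2.94 (SE 0.129, 95% interval -3.22 to -2.66, adjusted p = 1.65e-09). The wild-type duplicates of Tbxas1 stood further apart than those of Alox5, yet both lay well above the higher TNFR2 KO value.

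Hpgds, the prostaglandin D2 synthase of mast cells and other haematopoietic cells, lies on the minus strand of chromosome 6 at 65117293 to 65144908. It had 6.46 and 5.59 CPM in wild-type and 1.09 and 1.75 CPM in TNFR2 KO libraries. The TNFR2 KO duplicates varied more than those of the other members that passed the filter in both groups, with a coefficient of variation of 33%. The log2-fold change was -2.10 (SE 0.220, 95% interval -2.58 to -1.62, adjusted p = 6.05e-06), or 4.30-fold lower.

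Ptges, the inducible prostaglandin E2 synthase, lies on the minus strand of chromosome 2 at 30889471 to 30929863. It was low even in wild-type libraries, at 1.05 and 0.949 CPM, and had 0.129 and 0.0624 CPM in TNFR2 KO libraries. These values rest on 40 and 35 counts against 5 and 2. The log2-fold change was -3.30 with a wide error (SE 0.538, 95% interval -4.48 to -2.13, adjusted p = 0.000262). Without TNFR2 KO replicate 1 it was -3.92, and without TNFR2 KO replicate 2 it was -2.92.

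Transcript length affects how many counts a gene gathers, so levels of different members were compared as CPM per kilobase of the longest principal coding transcript in GENCODE release M21. In wild-type libraries Lta4h was the highest at 83.4 ± 2.48 CPM per kilobase (mean ± SD, n = 2 here and in the next sentences). Alox5ap followed with 45.1 ± 0.622, Alox5 with 11.7 ± 0.0495, Tbxas1 with 8.95 ± 0.895 and Ptgs1 with 6.15 ± 0.252 CPM per kilobase. The lower members were Ptgs2 at 3.87 ± 0.0863, Alox15 at 3.43 ± 0.296, Hpgds at 1.73 ± 0.177, Ltc4s at 0.351 ± 0.0362 and Ptges at 0.275 ± 0.0204 CPM per kilobase. Ptgs2 and Alox15 were neighbours that differed by little more than the larger of their SDs, and the other steps in this order were larger than the SDs. The last step, from Ltc4s to Ptges, rests on 17 Ltc4s counts in wild-type libraries, and its counting error was not weighed. The order depends on the transcript chosen: over all annotated exons of a gene, Alox5ap came first and Lta4h second, Tbxas1 came seventh, and Ptges ranked above Ltc4s.

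In TNFR2 KO libraries the order was different below Lta4h and Alox5ap. Lta4h had 119 ± 0.919 and Alox5ap 5.08 ± 0.333 CPM per kilobase, followed by Ptgs1 at 1.68 ± 0.0410 and Tbxas1 at 1.16 ± 0.0665. Ptgs2, Hpgds and Alox5 lay at 0.467 ± 0.0531, 0.408 ± 0.135 and 0.389 ± 0.0446 CPM per kilobase and did not differ beyond their spread, and Alox15 was at 0.188 ± 0.00849. Ltc4s and Ptges, at 0.0398 and 0.0263 CPM per kilobase, rested on 2 and 7 counts in all and cannot be ordered. Alox5, which ranked above Ptgs1 and Tbxas1 in wild-type libraries, was below both here, and over all annotated exons it was below Ptgs1 but not below Tbxas1. Lta4h made up 50.8% and 50.4% of the summed per-kilobase level of the 10 genes in wild-type and 92.6% and 92.8% in TNFR2 KO libraries. Within the leukotriene branch, the per-kilobase ratio of Alox5ap to Alox5 was 3.88 and 3.83 in wild-type and 14.9 and 11.5 in TNFR2 KO libraries, and the ratio of Lta4h to Alox5 was 7.27 and 7.01 against 336 and 282. With the length of all annotated exons of a gene in place of the principal transcript, a choice added after seeing the data, the share of Lta4h was 30.9% and 30.4% in wild-type and 84.5% and 85.0% in TNFR2 KO libraries. The ratio of Lta4h to Alox5 was then 3.52 and 3.39 against 162 and 137, and that of Alox5ap to Alox5 was 4.98 and 4.91 against 19.1 and 14.8. These ratios are descriptions and were not tested.

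Beyond the 10 synthesis genes, 54 further genes of eicosanoid release, conversion, breakdown, transport and sensing were listed, of which 42 passed the filter on low counts. By the rule above, 12 of the 42 were called lower and 0 were called higher, against 11.8% and 1.56% of all genes (13.3% in either direction). At an unadjusted p under 0.05 by edgeR, 7 of the 42 were higher, against 3730 of all 13822 genes tested. DESeq2 also called 0 of the 42 higher, against 157 of the 13822. Of the 12, 4 (Alox12, Alox12e, Aloxe3 and Ltb4r2) passed the filter through the wild-type libraries alone. The median log2-fold change of the 42 was -0.34.

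Among the phospholipase A2 genes, 3 of 9 tested were called lower. Pla2g4a, the cytosolic enzyme that releases arachidonic acid for both branches, had 31.3 and 33.6 CPM in wild-type and 3.10 and 3.46 CPM in TNFR2 KO libraries (log2-fold change -3.31, SE 0.0934, adjusted p = 2.42e-11). Pla2g7, the secreted enzyme that inactivates platelet-activating factor, had 130 and 121 CPM against 11.0 and 11.7 CPM (-3.47, SE 0.0579, adjusted p = 2.11e-13). The TNFR2 KO level was 10.1% of the wild-type level for Pla2g4a and 9.02% for Pla2g7, with no overlap between groups. Pla2g15, a lysosomal phospholipase, had 41.7 and 47.3 CPM against 17.4 and 20.1 CPM (-1.25, SE 0.0786, adjusted p = 5.11e-08). Plaat3, the most abundant gene of this group, had 132 and 129 CPM against 151 and 143 CPM (log2-fold change 0.17, adjusted p = 0.00156), under the fold limit.

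Other lipoxygenases were scarce in every library. Alox12e and Aloxe3 rested on 70 and 49 counts in wild-type libraries together and on 2 and 1 in TNFR2 KO libraries, with wild-type over TNFR2 KO ratios of 33.1 (counting interval 8.83 to 279) and 46.3 (7.94 to 1867). Both were called lower, and so was Alox12, the platelet-type enzyme, at 0.606 and 0.651 CPM against 0.181 and 0.0936 CPM (log2-fold change -2.14, SE 0.561, adjusted p = 0.00727). The call for Alox12 did not hold without wild-type replicate 2 (adjusted p = 0.0713) or without TNFR2 KO replicate 2 (adjusted p = 0.0561). Alox8 was lower at the adjusted p alone (-0.75, adjusted p = 0.00906), but not without wild-type replicate 2 (-0.56, adjusted p = 0.102). Without TNFR2 KO replicate 1, the TNFR2 KO arm held 0 counts of Alox12e and Aloxe3, so their fitted values depend on that library.

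Among the other prostanoid synthases, 1 of 5 tested was called lower. Prxl2b, a prostamide and prostaglandin F synthase, had 3.74 and 3.53 CPM in wild-type and 0.827 and 0.812 CPM in TNFR2 KO libraries (log2-fold change -2.14, SE 0.226, adjusted p = 6.66e-06). The most abundant genes of this group differed little. Ptges3, the cytosolic prostaglandin E synthase that is also a chaperone partner, had 139 and 134 CPM against 122 and 121 CPM (-0.17, adjusted p = 0.000807), and Akr1b3 had 131 and 133 CPM against 144 and 150 CPM (0.16, adjusted p = 0.00166).

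Of the genes that form or trim cysteinyl leukotrienes, 1 of 5 tested was called lower. This was Dpep2, the dipeptidase that turns leukotriene D4 into leukotriene E4, with 2.11 and 2.12 CPM in wild-type and 1.03 and 0.780 CPM in TNFR2 KO libraries (log2-fold change -1.21, SE 0.278, adjusted p = 0.00325). Ggt1 and Mgst2 had log2-fold changes of 0.20 (adjusted p = 0.000648) and 0.07 (adjusted p = 0.723), and the groups overlapped for Mgst2. Of the inactivating enzymes, 2 of 5 tested were called lower. Cyp4f18, which hydroxylates leukotriene B4 in myeloid cells, had 21.4 and 26.3 CPM against 1.86 and 2.53 CPM (-3.45, SE 0.151, adjusted p = 1.57e-09). Hpgd, which oxidises prostaglandins, had 3.01 and 2.55 CPM against 0.931 and 0.468 CPM (-1.96, SE 0.313, adjusted p = 0.000223). The log2-fold change of Hpgd was -2.55 without TNFR2 KO replicate 1 and -1.57 without TNFR2 KO replicate 2. Ptgr2 overlapped between the groups (0.03, adjusted p = 0.694).

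**Figure D2:**
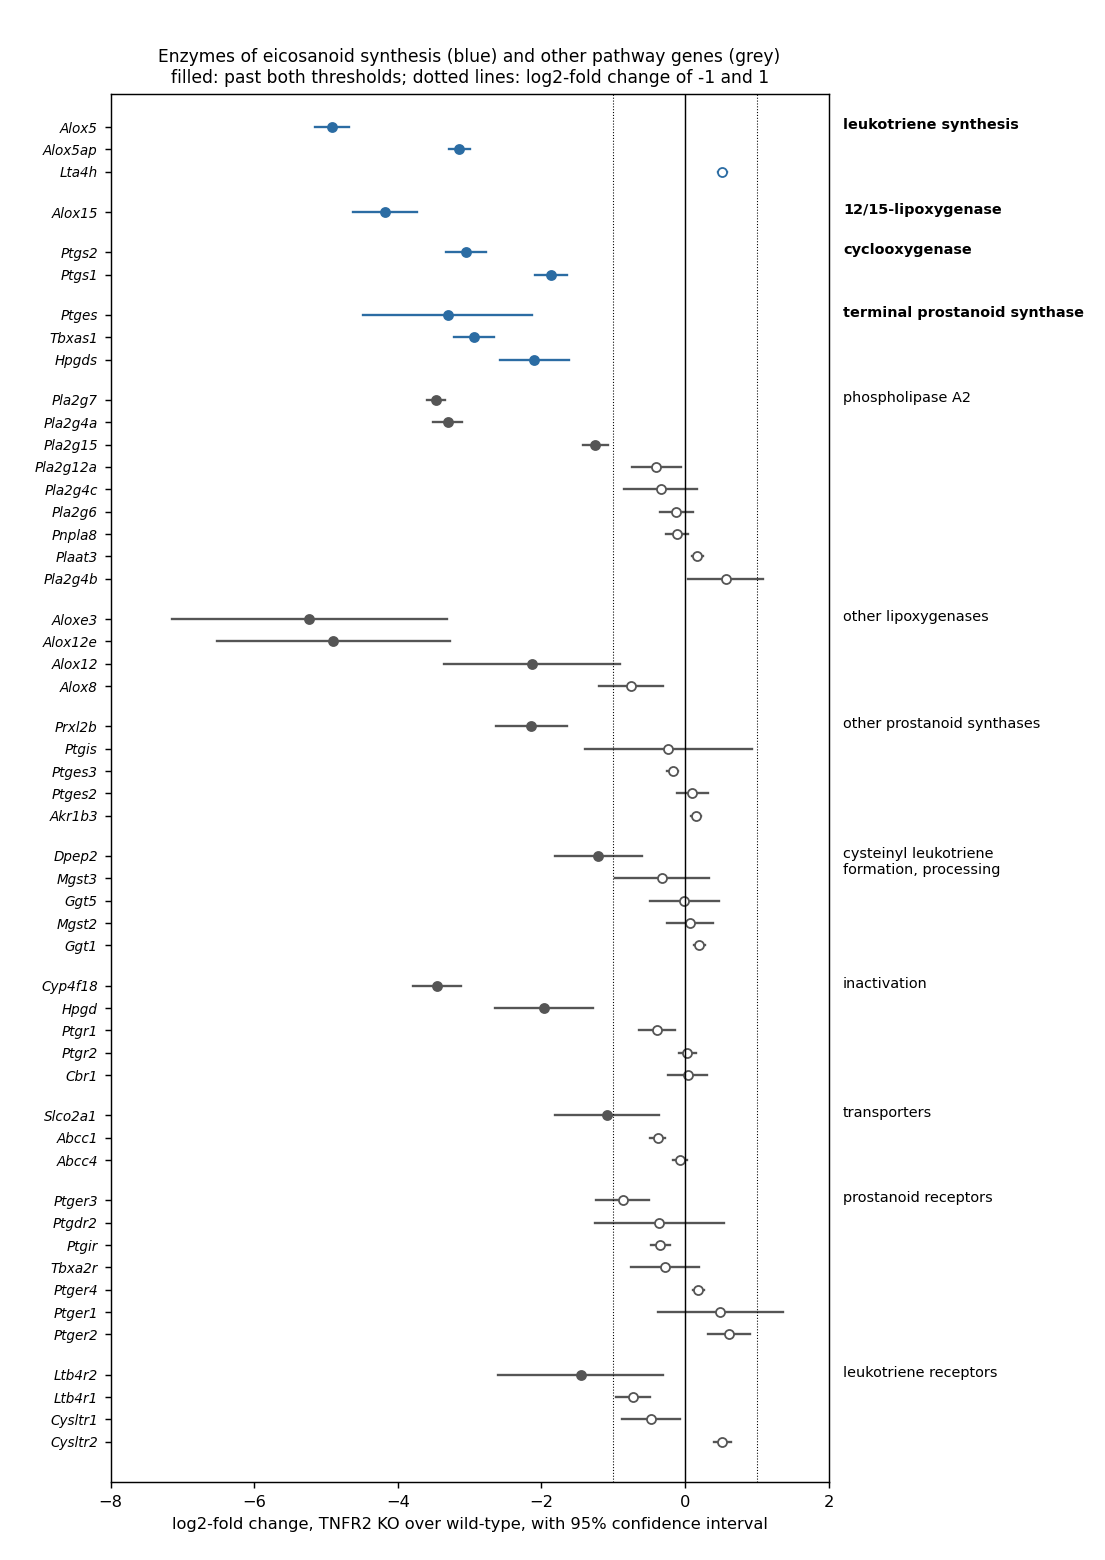
Log2-fold change (negative: lower in TNFR2 KO) with its 95% interval for the 9 synthesis genes (blue) and 42 other pathway genes (grey) tested, 1 line per gene and grouped by role. Filled points passed both thresholds, and dotted lines mark -1 and 1. The synthesis genes other than Lta4h lie between -4.91 and -1.87, while the receptors and transporters lie between -1 and 1 apart from Ltb4r2 and Slco2a1.

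For transporters, 1 of 3 tested was called lower. Slco2a1, the prostaglandin uptake carrier, had 2.03 and 2.12 CPM in wild-type and 1.29 and 0.624 CPM in TNFR2 KO libraries (log2-fold change -1.09, SE 0.329, adjusted p = 0.0157), and its TNFR2 KO duplicates stood apart. The call did not hold without wild-type replicate 2 (adjusted p = 0.0533) or TNFR2 KO replicate 2 (-0.68, adjusted p = 0.0797), and the log2-fold change was -1.72 without TNFR2 KO replicate 1. Abcc1, the export pump of leukotriene C4, was at 51.6 and 51.6 CPM against 40.7 and 38.5 CPM (-0.38, adjusted p = 3.36e-05). Abcc4, which exports prostaglandins, had 65.2 and 67.5 CPM against 64.2 and 61.9 CPM (-0.07, adjusted p = 0.178).

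The receptors contrasted with the synthesis genes in the sizes of their differences. Of the 7 prostanoid receptors tested, 2 were lower and 2 higher by the adjusted p, none past the fold limit. Ptger4, the prostaglandin E2 receptor most abundant here, had 101 and 98.2 CPM in wild-type and 112 and 114 CPM in TNFR2 KO libraries (log2-fold change 0.19, adjusted p = 0.000676). Ptger2, named after its value was seen, had 5.06 and 4.91 CPM against 7.29 and 8.02 CPM (0.62, adjusted p = 0.00212). Ptger3, also named after its value was seen, differed in the other direction, with 5.06 and 4.56 CPM against 2.56 and 2.72 CPM (-0.87, adjusted p = 0.000966). Ptgir, the prostacyclin receptor, had 29.9 and 31.6 CPM against 24.7 and 23.7 CPM (-0.34, adjusted p = 0.000398). Of the 4 leukotriene receptors tested, 3 were lower and 1 higher by the adjusted p. The higher one, Cysltr2, was at 32.3 and 29.7 CPM in wild-type and 45.0 and 43.8 CPM in TNFR2 KO libraries (0.52, adjusted p = 7.20e-06). Cysltr1, named after its value was seen, had 3.77 and 3.42 CPM against 2.71 and 2.43 CPM (-0.48, adjusted p = 0.0469). Ltb4r1, the high-affinity leukotriene B4 receptor, had 12.6 and 11.4 CPM against 7.45 and 7.02 CPM (-0.73, adjusted p = 0.000143). Ltb4r2 was called lower at 0.527 and 0.570 CPM against 0.207 and 0.187 CPM (-1.46, adjusted p = 0.0354), but not by DESeq2 (adjusted p = 0.167), with the replicate block (adjusted p = 0.0573) or with any library left out (adjusted p from 0.134 to 0.212). The genes that were higher by the adjusted p (Plaat3, Akr1b3, Ggt1, Ptger4, Ptger2 and Cysltr2) all had negative log2-fold changes under scaling on NK lineage genes, which moved the median of all genes to -0.71.

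Against all genes tested, the called members lay at the low end. Between 0.355% (Alox5) and 8.02% (Ptgs1) of genes had a log2-fold change as low as theirs, and 92.6% had one as low as or lower than that of Lta4h. The quartiles of all genes were -0.29 and 0.18. Genes with the most similar profile over the 4 libraries, by the Euclidean distance of centred log2 CPM among the 8762 genes averaging 10 CPM or more, were Tlr13, Kcnj10 and Klra2 for Alox5ap (distances 0.0186, 0.0395 and 0.0412). For Alox5 they were Gata2, which is also in the mast cell or basophil list used below, Mmp14 and Cd63 (0.442, 0.542 and 0.547), and for Ptgs1 they were Lcn2, Iigp1 and 5031439G07Rik (0.0349, 0.0390 and 0.0534). With 4 libraries in 2 groups such a profile is little more than the fold change itself.

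**Figure D3:**
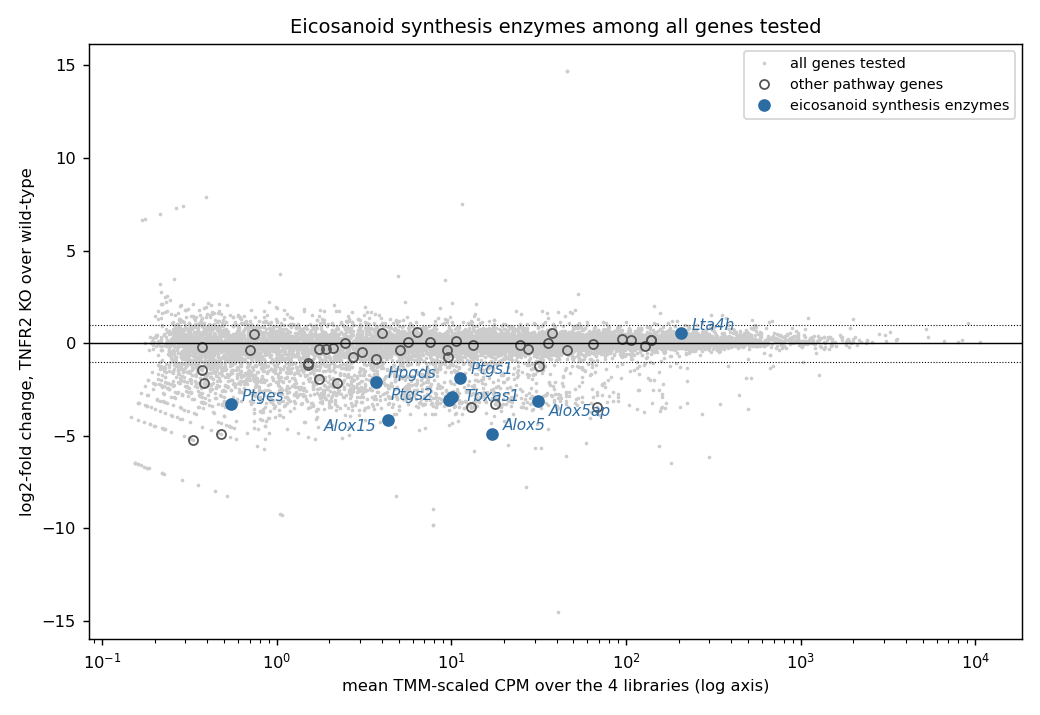
Log2-fold change (negative: lower in TNFR2 KO) against mean level in CPM (log axis) for the 13822 genes tested, with the tested synthesis genes filled and named and the other pathway genes as open circles. The 8 called synthesis genes lie below -1 and Lta4h lies at 0.52, while the median of all genes is close to 0.

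Markers of myeloid and mast cells were lower in TNFR2 KO libraries together with the synthesis genes, and their part in the result was not tested. In RNA from a whole sorted population, fewer cells of a type and less RNA per cell cannot be told apart. Of 12 mast cell or basophil markers, 10 were called lower and 1 (Cma1) higher, and their summed level was 1283 and 1279 CPM in wild-type and 104 and 105 CPM in TNFR2 KO libraries. Prss34, a basophil protease, had 589 and 591 CPM in wild-type and 8.66 and 7.55 CPM in TNFR2 KO libraries, Mcpt8 had 305 and 301 CPM against 5.97 and 6.87 CPM, and Cpa3 had 116 and 115 CPM against 2.69 and 2.75 CPM. All 12 neutrophil or granulocyte precursor markers were called lower, with sums of 991 and 1010 CPM against 93.6 and 90.3 CPM. Among them were Mpo at 356 and 361 CPM against 3.98 and 3.93 CPM, S100a9 at 120 and 121 CPM against 26.0 and 25.5 CPM, and Ngp at 115 and 121 CPM against 18.7 and 18.7 CPM.

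Eosinophil and megakaryocyte or platelet markers were less abundant and were lower as well. Of the 6 eosinophil markers tested (7 listed), all 6 were called lower, with sums of 45.2 and 43.6 CPM against 4.14 and 4.40 CPM. Epx and Prg2 were close to 0 in TNFR2 KO libraries, with 0 and 2 counts for Epx and 2 and 0 for Prg2, and Ccr3 had 11.9 and 11.4 CPM against 2.82 and 3.21 CPM. All 7 megakaryocyte or platelet markers tested (8 listed) were called lower, with sums of 41.4 and 38.0 CPM against 3.05 and 3.12 CPM. They were led by Itga2b at 34.1 and 31.8 CPM against 2.30 and 2.03 CPM, with Pf4 at 2.14 and 1.65 CPM against 0.181 and 0.250 CPM and Ppbp at 1.95 and 1.36 CPM against 0.414 and 0.406 CPM. Treml1 was at 0 in both TNFR2 KO libraries.

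Of 17 macrophage or monocyte markers tested (18 listed), 15 were called lower and the median log2-fold change was -2.95. The summed level, 2439 and 2410 CPM in wild-type and 1250 and 1228 CPM in TNFR2 KO libraries, was held up by Ccr2, at 404 and 384 CPM against 687 and 670 CPM, and Ly6c2, at 268 and 256 CPM against 312 and 315 CPM. Ccr2 and Ly6c2 are also expressed by activated lymphocytes, but the cell source of their RNA, or of that of any other marker, was not tested here. Lyz2, a lysozyme of phagocytes, had 771 and 778 CPM against 114 and 110 CPM. Clec4f, a marker of liver macrophages, was at 0 in every library. Dendritic cell markers were mixed, with 2 lower and 1 higher of 7 tested, the higher one being Itgax at 419 and 409 CPM against 882 and 908 CPM. Of the other abundant genes of that list, Zbtb46 had a log2-fold change of -0.04 with overlapping groups, and Ccr7 was called lower at 1.77 and 1.71 CPM against 0.750 and 0.874 CPM.

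NK cell markers were abundant in both groups, as the label has it. All 14 NK cell markers were higher in TNFR2 KO libraries by the adjusted p and 3 (Klrd1, Klra8 and Klrb1c) past the fold limit, with sums of 11150 and 11123 CPM in wild-type and 18633 and 18577 CPM in TNFR2 KO libraries. The most abundant were Gzmb at 3894 and 3859 CPM against 6589 and 6491 CPM, Il2rb at 2583 and 2580 CPM against 3477 and 3520 CPM, and Prf1 at 1368 and 1386 CPM against 2431 and 2478 CPM. Klra8, which encodes Ly49H itself, had 313 and 316 CPM against 762 and 726 CPM. Of 6 T cell markers, 4 were lower and 1 higher by the adjusted p and none past the fold limit, with sums of 741 and 733 CPM against 609 and 612 CPM (Cd4, Cd3g and Trac were the most abundant). Of 5 B cell markers only 1 passed the filter, and their sum was 3.16 and 3.28 CPM against 2.27 and 2.37 CPM (Cd79b, Cd79a and Ms4a1 were the most abundant). With the libraries scaled on NK lineage genes, the called genes split into 3309 lower and 38 higher in place of 1627 and 215. Of the 9 tested synthesis genes, 8 were again called lower. This scaling moved all genes down alike, with their median at -0.71, so it is no separate check of the lower calls.

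**Figure D4:**
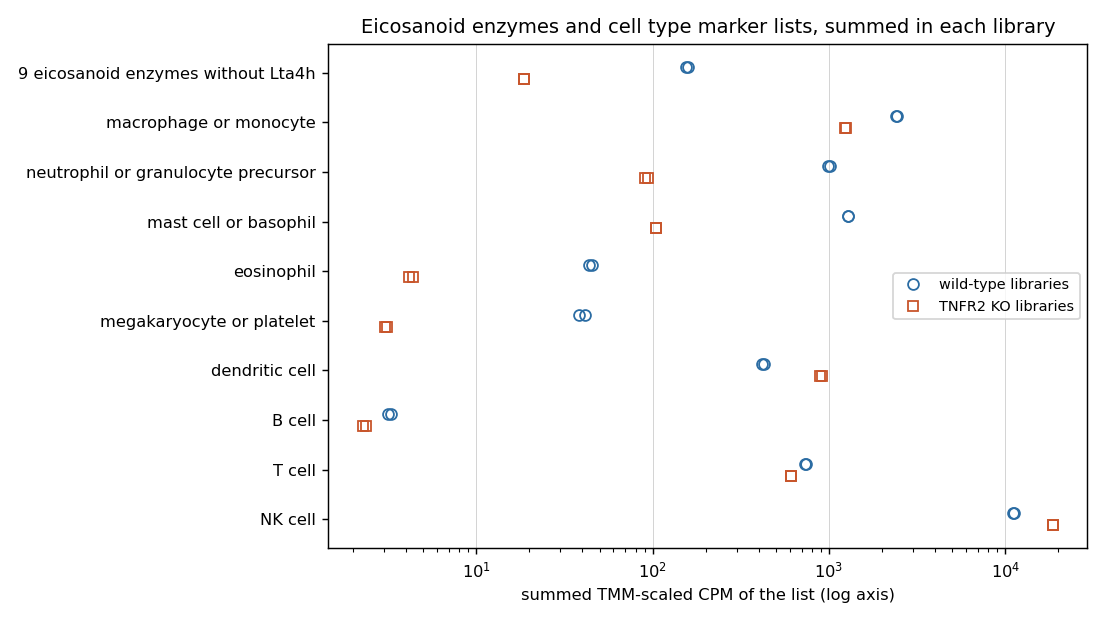
Summed level in TMM-scaled CPM (log axis) of the 9 synthesis genes without Lta4h and of each cell type marker list, 1 point per library (circles wild-type, squares TNFR2 KO). Mast cell or basophil markers lie at 1283 and 1279 CPM in wild-type and at 104 and 105 CPM in TNFR2 KO libraries, while NK cell markers are higher in TNFR2 KO libraries.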

How the data were processed

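Polyadenylated RNA of 4 libraries was sequenced. The authors trimmed the reads with Trimmomatic 1.4 and, per the labels, used kallisto 0.46.1 with mm10, then summed transcripts per gene. They deposited the resulting expected counts (estimated counts, unit not scaled between libraries) per gene symbol. Neither the transcript annotation nor the strand setting is given in the sources. A row without a gene name held 0.0559% to 0.0728% of a library and was left out.

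Counts were rounded and fitted over all genes with genotype as the only term in edgeR 4.0.16 (R 4.3.3; TMM, filterByExpr, quasi-likelihood test, Benjamini-Hochberg adjustment). The fit was run on simulated counts in which changes up and down were drawn alike. That setting differs from the mostly lower calls found here, so it is no test of the scaling under such an imbalance. DESeq2 1.42.0, other scalings, other filters, the replicate block and each library left out were the alternatives. Counts of 32713256 or more per library leave genes under about 10 counts untested, and intervals on counts cover counting error only. The labels state that libraries with the same number came from the same pooled spleens, so the numbers pair the samples. Deviations of same-numbered libraries correlated at 0.0487 over the genes tested. The paper reports a single experiment with duplicates and pooled spleens, and its wording is unclear on a separate pool for each duplicate. The common biological coefficient of variation of the fit was 3.33%. The p-values therefore measure only the spread between the duplicates. If both duplicates shared a pool, that spread would not include differences between groups of mice.

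The 10 genes and all lists were chosen with earlier results of these data known. Named are all 10, Tnfrsf1b, pathway genes that were called or were the 2 most abundant of their role, the 3 most abundant markers of each list, and the 3 genes of most similar profile. Ptger2, Ptger3, Cysltr1, Pla2g4b, Klra8 and other markers outside this rule were added after their values were seen. Pla2g16, Fam213b and Cd244 were matched as Plaat3, Prxl2b and Cd244a by RefSeq synonyms. Positions and transcript lengths come from GENCODE release M21 on GRCm38 (mm10), which stands in for the authors' annotation. Python 3.11.15, pandas 2.3.3, SciPy 1.17.1 and matplotlib 3.10.9 were used.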

Additional observations from a re-analysis of the deposited data

How the results depend on the processing

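Of 104 log2-fold changes of the 9 tested synthesis genes under the alternatives, 103 kept their direction and their side of the threshold, and Lta4h reversed to -0.19 under scaling on NK lineage genes. That scaling lowers all log2-fold changes alike, so it is no separate check of the lower calls. The 8 calls held under every alternative except the requirement of a mean of at least 10 CPM. That requirement left 5 members to test, with 4 called lower and 5 under the adjusted p threshold. With that requirement 4 of 17 further pathway genes were called lower, and over all 8763 genes 420 were lower and 58 higher, as fewer genes were tested. Scaling on NK lineage genes gave 3309 lower and 38 higher genes and 23 lower pathway genes, and turned Ggt1 (-0.51), Mgst2 (-0.63), Ptgr2 (-0.68), Cysltr2 (-0.19), Akr1b3 (-0.55), Plaat3 (-0.54), Ptger4 (-0.52), Pla2g4b (-0.14) and Ptger2 (-0.0899) negative, with the median of all genes at -0.71. Ptgr2 was also negative by library size alone (-0.0312) and with the 10 CPM requirement (-0.0068), and the cause was not tested. With single libraries left out, the log2-fold change of Ptgr2 ran from -0.0218 to 0.0896 and that of Mgst2 from -0.0468 to 0.219. With single libraries left out, 1431 to 1659 genes were lower and 208 to 219 higher, members lower stayed at 8 and members under the adjusted p threshold at 9, and pathway genes ran from 9 to 11 lower and 0 to 1 higher. The 1 higher gene was Pla2g4b (log2-fold change 1.08, adjusted p = 0.000927) without wild-type replicate 1. The fit with the replicate block called 1616 lower and 214 higher genes and 11 pathway genes lower, losing Ltb4r2, and changed no other call among the genes named. Ltc4s and Ptges rest on few counts, so depth limits what their values can show.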
